A study of Homo sapiens with 3 samples.

Results

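The genes examined were the nuclear end of canonical Wnt signalling: the HMG-box transcription factors TCF7, LEF1, TCF7L1 and TCF7L2, their coactivator β-catenin (CTNNB1), and the Groucho-type corepressors TLE1, TLE3 and TLE4. These 8 of 20037 protein-coding genes were chosen by name, with earlier results of these data known, so they are no random sample of genes. Each was described over its RefSeq span in GRCh38 plus 100 kb on each side. Chromatin immunoprecipitation with sequencing had been done in ALL-SIL, an established human line of T-cell acute lymphoblastic leukaemia. Cells with no treatment named gave 1 H3K4me1 library, 1 H3K4me3 library and 1 input DNA library, so no value has a replicate error and no test between genes or marks was possible. The cells are a single tumour line with no normal T cell beside it.

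H3K4me3 marks the starts of active genes, and H3K4me1 marks enhancers and the shoulders of active starts. Without β-catenin, TCF/LEF proteins sit on DNA with TLE corepressors and hold target genes down, and when a Wnt ligand stabilises β-catenin it displaces TLE and target genes are switched on. TCF7 and LEF1 are the family members of T cells and are needed for thymocyte development, whereas TCF7L1 and TCF7L2 are best known in stem cells and in epithelium. TCF7 and LEF1 each have an internal promoter whose shorter protein lacks the part that binds β-catenin. Loss of LEF1 occurs in some T-cell leukaemias.

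Lineage markers were checked with both marks. Over all protein-coding genes, H3K4me3 was called at 53.4%, and H3K4me1 lay in the span of 60.5%. H3K4me3 was called at 8 of 9 T-lineage markers (PTCRA was the exception), at 1 of 5 B-lineage markers (PAX5, 197 bp) and at 0 of 5 myeloid, 0 of 5 erythroid and megakaryocyte and 0 of 5 natural killer markers. H3K4me1 was less selective, in the span of 9 of 9 T-lineage, 4 of 5 B-lineage, 3 of 5 myeloid, 2 of 5 natural killer and 0 of 5 erythroid and megakaryocyte markers. After filtering, 34813455 H3K4me1 tags, 30823016 H3K4me3 tags and 18859011 input tags remained, and the lists held 62087 and 11100 peaks. Fold below is the enrichment over local background in the authors' tables and was used to describe peaks within a list. It is 1 value for a whole peak, with no summit given. Folds of peaks of unlike length thus do not compare their highest points.

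5 start regions show the contrast within the family. Each line gives the 250 bases before an annotated start, 5′ to 3′ in the direction of transcription, from RefSeq (GRCh38.p14), with CG dinucleotides in capitals. Promoters rich in CG are those most often marked by H3K4me3. The only tabulated LEF1 start, used here, lies 2631 bp inside the 5′ end of the LEF1 span. The TCF7 pair is shown because only the earlier start lay under H3K4me3, LEF1 because it was marked with few CG, and TCF7L1 and TLE4 because they were CG-rich with no peak called. Their positions are chr5:134115363-134115612, plus strand and chr5:134123368-134123617, plus strand for TCF7, chr4:108166302-108166551, minus strand for LEF1, chr2:85133142-85133391, plus strand for TCF7L1 and chr9:79571715-79571964, plus strand for TLE4.
TCF7 start 1: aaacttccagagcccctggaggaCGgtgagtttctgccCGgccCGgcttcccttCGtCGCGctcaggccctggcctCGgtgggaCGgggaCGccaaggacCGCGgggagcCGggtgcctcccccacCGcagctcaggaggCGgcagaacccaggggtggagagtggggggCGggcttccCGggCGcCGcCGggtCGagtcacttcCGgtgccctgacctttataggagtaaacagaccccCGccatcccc
TCF7 start 2: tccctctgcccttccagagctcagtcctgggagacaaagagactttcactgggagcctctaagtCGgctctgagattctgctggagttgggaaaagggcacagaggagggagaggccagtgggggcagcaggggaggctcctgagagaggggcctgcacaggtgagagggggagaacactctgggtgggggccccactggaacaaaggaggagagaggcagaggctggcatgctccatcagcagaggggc
LEF1: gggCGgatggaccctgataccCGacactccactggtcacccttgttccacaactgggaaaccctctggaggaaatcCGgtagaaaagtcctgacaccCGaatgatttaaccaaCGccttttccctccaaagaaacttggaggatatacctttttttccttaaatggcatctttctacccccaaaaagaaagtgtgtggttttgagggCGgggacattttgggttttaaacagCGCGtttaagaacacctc
TCF7L1: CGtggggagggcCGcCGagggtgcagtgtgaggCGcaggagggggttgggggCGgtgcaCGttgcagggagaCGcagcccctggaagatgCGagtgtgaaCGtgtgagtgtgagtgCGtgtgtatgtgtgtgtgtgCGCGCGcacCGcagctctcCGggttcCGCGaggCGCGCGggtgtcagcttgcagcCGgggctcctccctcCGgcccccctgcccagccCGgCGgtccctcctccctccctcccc
TLE4 start 1: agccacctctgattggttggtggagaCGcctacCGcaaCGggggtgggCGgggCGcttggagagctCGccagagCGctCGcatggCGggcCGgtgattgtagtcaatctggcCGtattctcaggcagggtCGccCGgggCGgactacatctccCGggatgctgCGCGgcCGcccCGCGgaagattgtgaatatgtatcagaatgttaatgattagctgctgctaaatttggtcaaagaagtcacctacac

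H3K4me3 fell into 3 kinds across the family. TCF7, LEF1 and the corepressor gene TLE3 lay under domains of over 7 kb, TCF7L2 and CTNNB1 under domains of 2 to 3 kb, and TLE1, TCF7L1 and TLE4 had a fragment or nothing. A domain is a run of H3K4me3 peaks with gaps of up to 1 kb, and a gene was counted where a domain touched its span or the 1 kb beside it. By that rule 6 of 8 genes had H3K4me3 (75.0%, exact 95% interval 34.9 to 96.8, counting error only), against 53.4% of all protein-coding genes. A domain of at least 4 kb was found at 3 of 8 genes, against 1.87% of all. The median of the longest domain over the 8 genes was 2535.5 bp, against 681 bp over all protein-coding genes, with genes without a domain at 0. The 8 genes have a median span of 114 kb, against 24.1 kb over all, and a longer span meets a domain more easily. These comparisons of H3K4me3 were not matched for gene length. Each of the 6 domains was a single peak called with the broad setting, so joining peaks across gaps of up to 1 kb added nothing to these lengths.

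**Figure D1:**
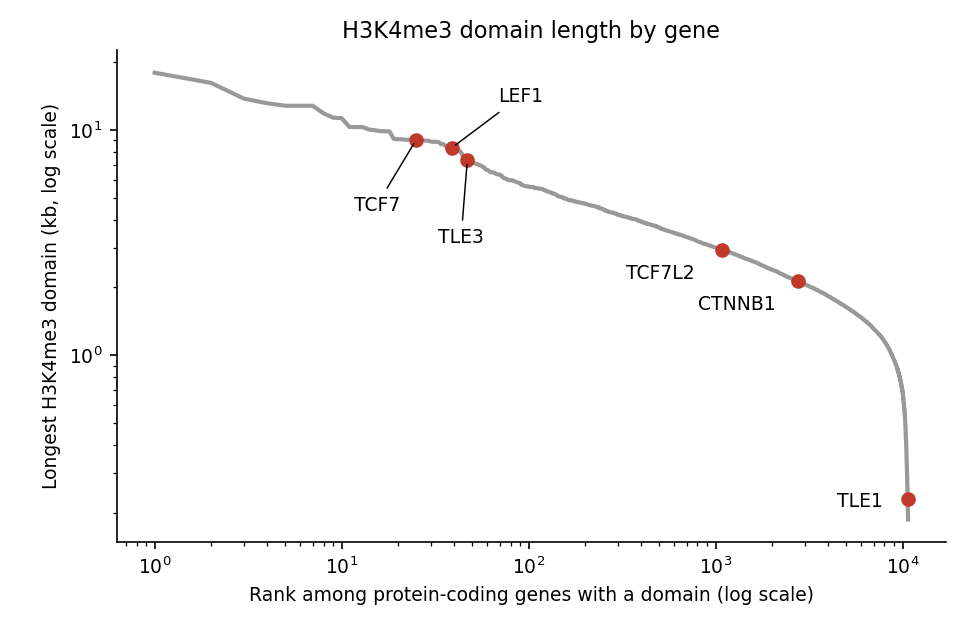
Longest H3K4me3 domain of each of the 10701 protein-coding genes with a domain, ranked from the longest (both axes on a log scale, length in kb); the grey line is all genes and the red points are the 6 marked genes of the family. TCF7, LEF1 and TLE3 sit close together with 24, 37 and 46 genes above them, TCF7L2 and CTNNB1 lie further down with 1081 and 2745 above, and TLE1 is near the end.

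The longest of these covered TCF7, which encodes TCF-1, and measured 9.01 kb (chr5:134113933-134122942) with a fold of 6.78. Of this domain 608 bp also lay inside the span of the overlapping gene VDAC1. Only 24 of the 10701 marked genes had a longer domain. LEF1 followed with 8.34 kb (chr4:108161272-108169614) and a fold of 3.82, and 37 marked genes had a longer one. TLE3 had 7.34 kb (chr15:70092514-70099849) and a fold of 4.62, with 46 genes above it. So 3 domains of like length differed in fold. TCF7 stood at the 83.5th percentile of fold in the H3K4me3 list, TLE3 at the 51.7th and LEF1 at the 34.6th. When only peaks at or above the median fold of their list were kept, LEF1, CTNNB1 and TLE1 had no H3K4me3, so 3 of the 8 genes kept it. When a −log10 q of 5 or more was required, CTNNB1 and TLE1 had none, and 4 of the 8 kept it.

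TCF7L2 had 2.94 kb (chr10:112949885-112952822) with a fold of 6.67, nearly that of TCF7 over a much shorter stretch. CTNNB1 had 2.13 kb (chr3:41199026-41201158) with a fold of 3.58, above the median of 1576 bp for marked genes but at the 29.0th percentile of fold. The TLE1 fragment was 231 bp long at a fold of 2.32 (chromosome 9, 81689765 to 81689995). It began 218 bp before the TLE1 start and lay inside the divergent lncRNA gene TLE1-DT, so no H3K4me3 was called within the TLE1 span itself. TCF7L1 (chromosome 2, 85133392 to 85310387) and TLE4 (chromosome 9, 79571965 to 79726882) had no domain. The nearest H3K4me3 was 160685 bp from the TCF7L1 start and 1335054 bp from the earlier TLE4 start. Peak lists give no counts where nothing was called, so H3K4me3 at these genes was not detectable at this depth rather than shown to be absent.

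Internal starts were looked at next, with 1 limit: the start table holds a single LEF1 start, 2631 bp inside the LEF1 span. No other LEF1 start, at the 5′ end of the span or internal, was analysed here. RefSeq's start table gave 14 starts for the 8 genes, and 7 of them lay under a domain (50.0%, 23.0 to 77.0), against 44.6% of 22199 starts of protein-coding genes. At TCF7 the span begins 7395 bp before the earlier tabulated start, and the domain covered that start (134115613), reaching 1.68 kb before it and 7.33 kb past it. The later TCF7 start, at 134123618, lay 676 bp beyond the end of the domain and inside an H3K4me1 peak. At TLE3 all 3 starts were under the domain. At TCF7L2 only the outermost of 3 starts was, and the others, 173811 and 176449 bp from the domain, carried neither mark. Among the 4057 genes with several tabulated starts, 25.7% had some but not all under a domain, 31.1% had all and 43.2% none.

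**Figure D2:**
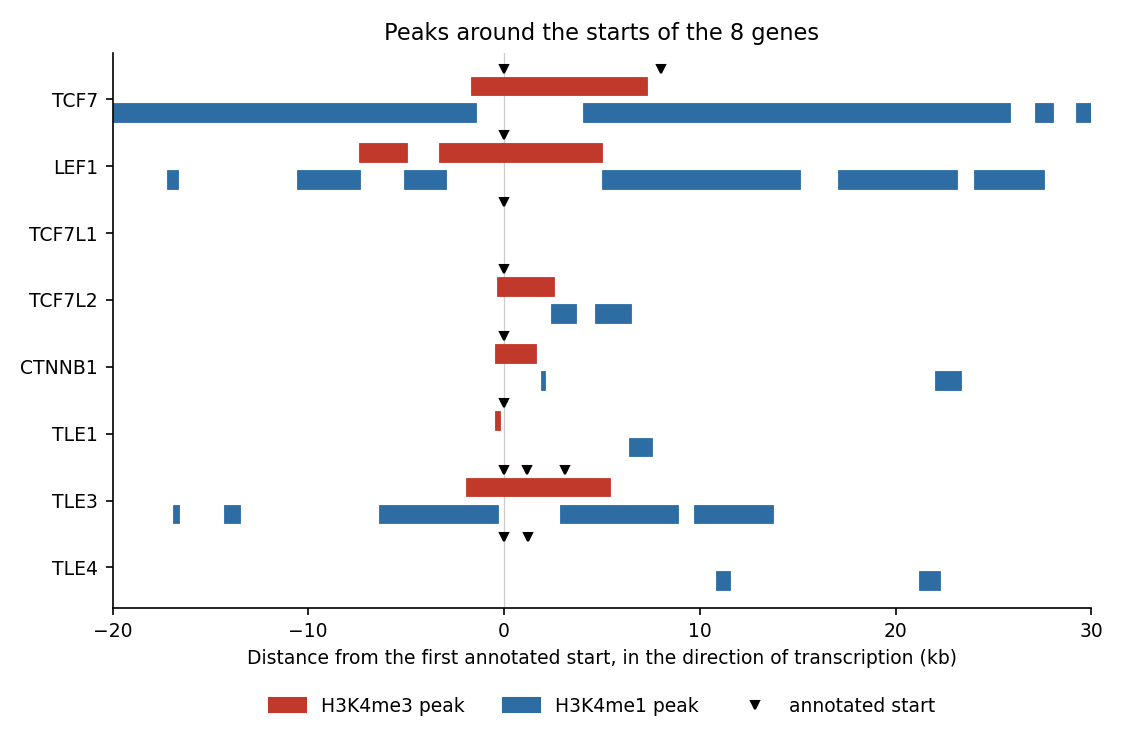
H3K4me3 peaks (red) and H3K4me1 peaks (blue) of the 8 genes by distance from the first annotated start in kb, in the direction of transcription; triangles are annotated starts. TCF7, LEF1 and TLE3 have H3K4me1 on both sides of a long H3K4me3 peak, TCF7L2 and CTNNB1 only downstream, and TCF7L1 and TLE4 have no H3K4me3.

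The LEF1 start (108166301) lay 3.31 kb from the upstream and 5.03 kb from the downstream end of its domain. This domain also covered the start of LOC124900752, a gene read in the opposite direction, and overlapped the span of the antisense lncRNA gene LEF1-AS1. A separate H3K4me3 peak of 2.47 kb and a higher fold, 6.78, covered the LEF1-AS1 start (108172120), 5819 bp from the tabulated LEF1 start. Between the peaks was a gap of 1640 bp, and all 1640 bp were covered by H3K4me1. Peaks carry no strand, so how much of the LEF1 domain belongs to each gene cannot be told apart. TCF7L2 reached 0.362 kb upstream and 2.58 kb downstream of its start, and its domain also covered the start of the lncRNA gene LOC124902502. CTNNB1 reached 0.479 kb upstream and 1.65 kb downstream.

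The CG content of the starts did not follow the mark in every gene. The earlier TCF7 start printed above had 22 CG in 250 bases and the later one had 1. The single tabulated LEF1 start had 8, and of 2725 promoters with 5 to 9 CG only 20.1% lay under a domain. TCF7L1 had 24 and TLE4 start 1 had 20, and 67.8% of the 3107 promoters with 20 to 24 CG lay under one. The other TLE4 start and the TLE1 start had 33 CG each, where 64.2% of promoters with at least 25 did. CTNNB1 had 34 and the outermost TCF7L2 start 21. At TLE3 the 3 starts, all under the domain, had 17, 28 and 4 CG, and only 4.58% of the 4933 promoters with up to 4 CG lay under one. The tabulated LEF1 start and the innermost TLE3 start thus lay under a domain at CG counts where most did not. The TCF7L1, TLE1 and TLE4 starts lay under none at counts where most did, although the TLE1 fragment overlapped the far end of its 250-base window.

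These 250-base windows were searched for 5 motifs of factors used in T cells. With only 14 promoters, the counts were not tested against the shares of all promoters. CTTTGAT, a TCF/LEF core, was in 0 of the 14 promoters on either strand, and in 1.78% of all 22199. TGTGGT, a RUNX core, was in 2: LEF1, 57 bases before the start and visible above, and the innermost TLE3 start, 42 bases before it. It was in 9.36% of all promoters. The GATA motif AGATAA was in none of the 14, and in 7.09% of all. The AP-1 motif TGACTCA was in none either, and in 3.45% of all. The E-box CAGCTG was also in none, and in 13.7% of all. No motif overlapped another. Such matches describe letters only, and say nothing on binding.

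H3K4me1 beside the domains differed between the genes, but flanks on both sides were not particular to this family. The longest domain had H3K4me1 within 2 kb on both sides at 3 of the 6 marked genes (TCF7, LEF1 and TLE3). The share was 60.0% over all marked genes and 79.7% over the 237 start domains of at least 4 kb. TCF7L2 and CTNNB1 had it on the downstream side only, and the TLE1 fragment on neither. The midpoint of the domain lay inside H3K4me1 at 0 of the 6, against 7.22% of marked genes. So in all 5 genes with a start under a domain the middle carried H3K4me3 alone, and the genes differed at the edges.

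TCF7 was bordered by long H3K4me1 peaks. A peak of 46.9 kb ended 239 bp inside the upstream edge of the domain (chromosome 5, 134067252 to 134114171), and only 18 of the 62087 H3K4me1 peaks were longer. On the other side a peak of 21.8 kb (134119663 to 134141473) began inside the domain and overlapped its last 3280 bp. In all 39.1% of the domain was covered, leaving a core of 5.49 kb with H3K4me3 alone, which held the earlier start. H3K4me1 filled every base of the 10 kb beyond each edge, which held for 3 of the 7034 domains over a protein-coding start (the others were at RARA and SEPTIN9). The median domain had 0.602 kb of H3K4me1 in the 10 kb upstream and 1.28 kb in the 10 kb downstream.

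The upstream peak crossed a gene border. All of its length lay within the span of VDAC1, a mitochondrial channel gene whose span overlaps that of TCF7 by 6323 bp, and 5.95 kb of it lay inside the TCF7 span. Its fold was 2.44 and its −log10 q 2.24, close to the list medians of 2.37 and 2.27. It was thus long, with a middling score for the whole peak. Both long TCF7 peaks stayed when only peaks at or above the median fold were kept.

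LEF1 showed alternating segments. From the gene body outward came H3K4me1 of 10.1 kb, the LEF1 domain, H3K4me1 of 2.17 kb, the LEF1-AS1 peak of H3K4me3 and H3K4me1 of 3.21 kb, in 25.7 kb in all. Neighbouring segments overlapped by 44, 353, 176 and 64 bp. Only 4.76% of the LEF1 domain was covered by H3K4me1, leaving a core of 7.95 kb, the longest of the family. Downstream the whole 10 kb was covered, as at 62 of the 7034 start domains, and upstream 5.02 kb was.

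At TLE3, as at TCF7, H3K4me1 reached well into the H3K4me3 domain. Peaks of 6.06 kb upstream and 6.02 kb downstream overlapped the domain by 1604 and 2544 bp, and 56.5% of it was covered. The core free of H3K4me1 was 3.19 kb and held 2 of the 3 starts, while the innermost start (70094789) carried both marks. Among the 237 start domains of at least 4 kb the median share covered was 6.36%, and 79.7% had H3K4me1 on both sides. TLE3 was at the 96.2nd percentile of these for the share covered, TCF7 at the 91.6th and LEF1 at the 46.8th.

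At TCF7L2 the H3K4me1 peak past the domain was 1.24 kb long and overlapped it by 160 bp. Upstream the nearest H3K4me1 was 149495 bp away. CTNNB1 had a peak of 0.226 kb, 213 bp past the downstream edge, and upstream the nearest was 39677 bp away. These sides without H3K4me1 fell to the upstream side in both genes. Over all starts under a domain, H3K4me1 lay within 2 kb upstream at 69.8% and downstream at 81.7%.

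**Figure D3:**
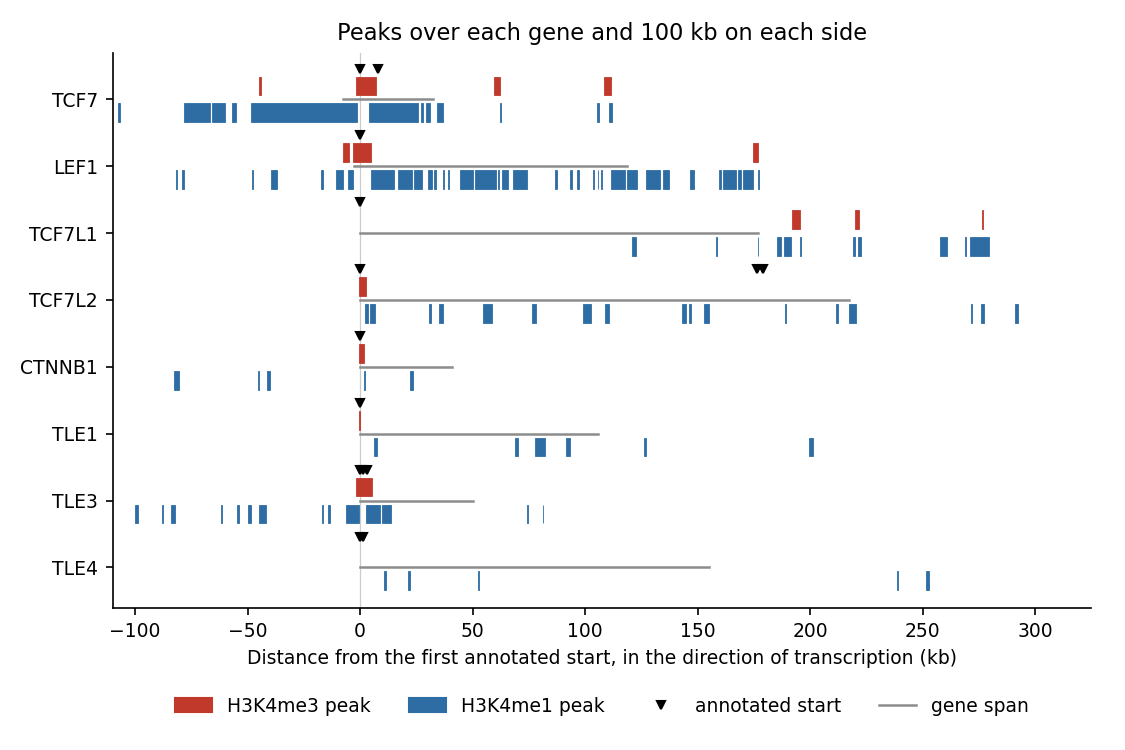
All H3K4me3 peaks (red) and H3K4me1 peaks (blue) over each gene span (grey line) and 100 kb on each side, by distance from the first annotated start in kb; triangles are annotated starts. H3K4me1 is dense across TCF7 and LEF1, scattered along TCF7L2, upstream of TLE3 and sparse at CTNNB1, TLE1 and TLE4.

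Over whole genes, H3K4me1 covered most of TCF7 and a smaller but large part of LEF1. All 8 spans held at least 1 H3K4me1 peak, against 60.5% of protein-coding genes. The median share of the span covered was 9.12%, against 2.04% over all protein-coding genes. The 8 genes are long, with a median span of 114 kb against 24.1 kb, and a longer span holds a peak more easily. Each was therefore also set beside genes of 0.5 to 2 times its length. Of these, 2052 of 6828 held no H3K4me1 peak for TCF7, the shortest gene, and 722 of 2622 for TCF7L2, the longest. The windows of the 8 genes held 105 H3K4me1 peaks, 50 of them in the spans, 24 upstream and 31 downstream. Per 100 kb of window the median was 3.50 peaks, against 3.56 over all protein-coding genes, so the family as a whole did not have more peaks than other genes.

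In TCF7, H3K4me1 covered 76.0% of the span (30.4 of 40.0 kb, 4 peaks), and 18 of 6828 genes of like length had a higher share. In LEF1 it covered 47.6% (57.8 of 121 kb), and 76 of 4258 genes of like length had more. LEF1 reached this with 19 peaks of a median of 1155 bp, against 11771 bp for the 4 TCF7 peaks. TLE3 had 20.0% covered by 2 peaks, with 694 of 6476 genes of like length above it. Both TLE3 peaks have folds below the list median, and none of the 10.1 kb was left when only peaks at or above it were kept. With that limit TCF7L2 kept 20.6 kb, LEF1 28.7 of its 57.8 kb and TCF7 all 30.4 kb.

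TCF7L2 carried a different pattern, with 13 separate peaks of a median of 1460 bp spread along 217 kb, 10.1% of the span. Some of its peaks had folds among the highest of the family. The one on chromosome 10 from 113093477 to 113095030 had a fold of 5.15 and a −log10 q of 8.74, at the 96.3rd percentile of fold in the list. The highest fold in the LEF1 window was 3.25 and in the TCF7 window 4.10. When a −log10 q of 5 or more was required, TCF7L2 kept 7.70 kb of H3K4me1 in its span and TCF7 and LEF1 kept 0 kb. The order of the genes thus turned with the score required. Among all H3K4me1 peaks of 10 kb or more, 11.9% passed this limit. The share was 15.9% at 1 to 10 kb and 18.0% under 1 kb. Any part of peak length in the order of the genes was not tested.

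TLE1 had 4 peaks over 8.12% of its span, above the median of 2.18% for genes of like length, and 1112 of 4681 such genes had more. The other 3 genes had less. CTNNB1 had 2 peaks over 3.74%, TCF7L1 3 peaks over 1.46% and TLE4 3 peaks over 1.44%. For TCF7L1, CTNNB1 and TLE4 the share was near the median of genes of like length (1.85%, 3.12% and 2.02%). A TCF7L1 peak of 507 bp, deep in the gene at chromosome 2 from 85291433 to 85291939, had a fold of 5.09. Sparse H3K4me1 was thus not always of low fold. The TLE1 and TLE4 starts had their nearest H3K4me1 6392 and 9620 bp away (the later TLE4 start), and the TCF7L1 start 119490 bp away.

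The flanks were uneven. In the 100 kb upstream, H3K4me1 covered 60.8 kb at TCF7, 16.8 kb at TLE3, 10.9 kb at LEF1, 4.08 kb at CTNNB1 and 0 kb at TCF7L1, TCF7L2, TLE1 and TLE4. In the 100 kb downstream it covered 28.1 kb at LEF1, 16.3 kb at TCF7L1, 6.08 kb at TCF7L2, 5.81 kb at TCF7, 2.59 kb at TLE1, 1.44 kb at TLE4, 0.911 kb at TLE3 and 0 kb at CTNNB1. TLE3 had 10 of its 12 flanking peaks upstream, none of them within another annotated gene. At TCF7L1, 7 of the 8 flanking peaks lay in TGOLN2, RETSAT, ELMOD3 or CAPG. At LEF1, 7 of the 9 downstream peaks lay inside HADH, the gene of a mitochondrial fatty acid enzyme. The whole 100 kb upstream of TCF7 lies inside VDAC1, and so do the 60.8 kb of H3K4me1 there. A peak in a neighbour cannot be given to either gene from these data.

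Peaks stitched across gaps of up to 12.5 kb gave a region of 115 kb with 93.3 kb covered at TCF7 and of 91.4 kb with 53.4 kb covered at LEF1. Of the TCF7 region 71.0 kb lay before the TCF7 span, all of it inside VDAC1. The next were TLE3 (30.7 kb, 17.3 kb covered) and TLE1 (24.5 kb, 7.41 kb covered). At TCF7L2 the richest was 11.4 kb with 5.53 kb covered, from 2 peaks.

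**Figure D4:**
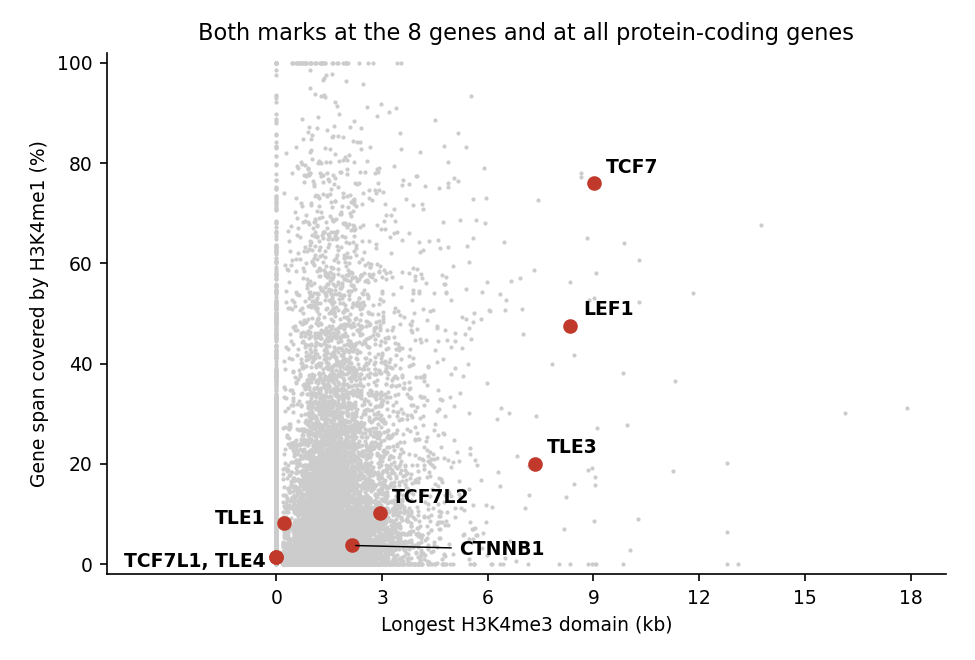
Longest H3K4me3 domain (kb) against the share of the gene span covered by H3K4me1 (%) for all 20037 protein-coding genes (grey) and the 8 genes of the family (red). TCF7 and LEF1 are high on both axes, TLE3 has a long domain with 20.0% covered, and the other 5 lie at domains under 3 kb and shares near or below 10%.

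Across the rest of the Wnt pathway, cytoplasmic genes mostly carried H3K4me3 and ligand genes mostly did not, and differences between roles were not tested. Of 75 other pathway genes 28 had H3K4me3 (37.3%, 26.4 to 49.3), beside the 53.4% of all protein-coding genes. A tabulated start lay under a domain at 16 of the 28. The starts of 6 did not (WNT8B, LRP5, RNF43, TLE2, DVL3 and AXIN1), so H3K4me3 there lay elsewhere in the gene or beside it. Another 6 had no tabulated start (FZD2, FZD6, DKK4, AXIN2, BTRC and BCL9L), so whether their H3K4me3 lay at a start of the gene was not examined. Among ligands it was at 1 of 19 (WNT8B, 0.551 kb) and among secreted inhibitors at 1 of 10 (DKK4, 1.64 kb). Of 15 receptors and coreceptors 4 had it, LRP5 (1.91 kb), FZD2 (1.68 kb), FZD6 (1.23 kb) and FZD5 (0.689 kb).

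Of the 12 cytoplasmic genes, which include the Dishevelled relays and the complex that destroys β-catenin, 11 had H3K4me3, and APC2 was the exception. A tabulated start lay under a domain at 7 of them. The DVL3 and AXIN1 starts did not, and AXIN2 and BTRC had no tabulated start. GSK3B, the kinase that marks β-catenin for destruction, had the longest domain of the 75, 5.57 kb, followed by GSK3A (3.20 kb). The kinase CSNK1A1 had 2.92 kb, and AXIN2, a scaffold and a feedback target of the pathway, 1.87 kb. TCF7, LEF1 and TLE3 all had longer domains than any of the 75.

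Of 10 other nuclear genes 7 had it. The repressor HBP1 had 3.17 kb, the short Groucho-like TLE5 2.13 kb, and the coactivators BCL9 and PYGO2 1.94 and 1.91 kb. TLE2, named after its value was seen, had 1.42 kb, so of 6 TLE genes looked at TLE2, TLE3 and TLE5 had H3K4me3 of over 1 kb, TLE1 the fragment, and TLE4 and TLE6 none. PYGO1 and JUP, the plakoglobin relative of β-catenin, had none.

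For secretion PORCN had 1.55 kb and WLS none, and of the ubiquitin ligases that remove Wnt receptors RNF43 had 1.47 kb and ZNRF3 none. Of 5 target genes NKD2 (2.36 kb) and CD44 (0.976 kb) had H3K4me3, and CCND1, NKD1 and SP5 had none. H3K4me1 was in the span of 41 of the 75, against 60.5% of all protein-coding genes, so the list as a whole did not stand above other genes. By role it was in 9 of 19 ligands, 4 of 15 receptors, 11 of 12 cytoplasmic and 8 of 10 nuclear genes. With peaks at or above the median fold alone, 16 of the 75 had H3K4me3.

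**Figure D5:**
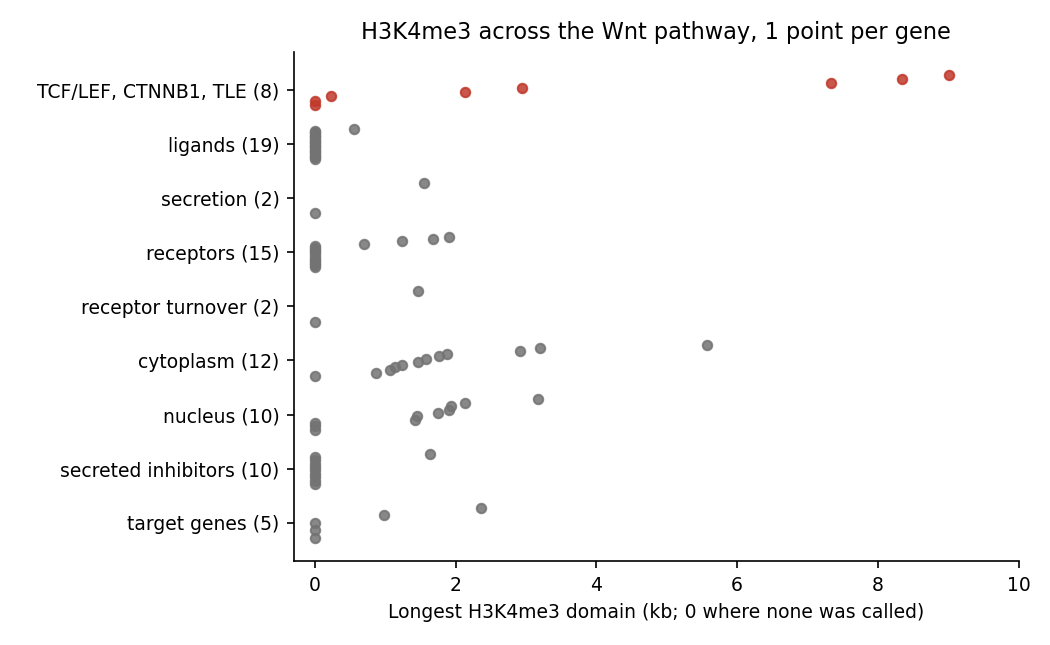
Longest H3K4me3 domain (kb, 0 where none was called) of the 8 genes (red) and of 75 other Wnt pathway genes (grey) by role, with 1 point per gene and the number of genes in brackets. Ligands and secreted inhibitors sit almost wholly at 0, cytoplasmic genes between 0 and 5.57 kb, and TCF7, LEF1 and TLE3 beyond all others.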

How the data were processed

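Peaks of H3K4me1 and H3K4me3 in ALL-SIL cells were read from the authors' tables. The caller was MACS2 2.1.0.20150731 with its broad setting (q of 0.1 for broad and 0.05 for strong regions) against 1 input library, with 1 tag kept per position, per the file headers. Per the labels' protocols, antibodies ab8895 and ab8580 were used. The build was GRCh38, per the submitters' processing notes. Input paths carry the name STAR, per the file headers, with no version. The deposited pileup is a coverage signal, the deposited fold enrichment a ratio over local background, and the deposited p and q are on a −log10 scale, 1 value for each peak.

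Genes, starts and promoter sequences came from RefSeq (GRCh38.p14). All 8 genes matched by symbol in both tables. The gene table gives 1 span a gene, and the start table covered 15843 protein-coding genes. Intervals were compared in Python 3.11.15 with numpy 2.4.6 and pandas 2.3.3, and the functions were tested on simulated data. Shares carry exact (Clopper-Pearson) 95% intervals for counting error only. The planned comparison of proteins was not made. CG counts and cores were added after the peaks were seen. The members and lists were chosen with earlier results of these data known. All 8 genes were named, with each domain at a gene, the genes under other H3K4me3 in the windows, pathway genes (all where 5 or fewer, otherwise up to 4 by domain length), and the 3 genes most like TCF7 and LEF1. Alternatives were other score limits, gaps, margins, flanks and windows.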

Additional observations from a re-analysis of the deposited data

How the results depend on the processing

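Values are counts or lengths from 1 library per mark. At the 8 genes, presence and length of the H3K4me3 domains did not move with the gap joined (0 or 3 kb) or the margin (5 kb), except that LEF1 grew to 12.4 kb with LEF1-AS1 at the 3-kb gap. With the 5-kb margin 31 Wnt pathway genes had H3K4me3, against 28. When a −log10 q of 5 or more was required, 4 of the 8 genes had H3K4me3 (CTNNB1 and TLE1 were lost), as did 21 Wnt pathway genes, the median longest domain was 1469 bp, the H3K4me1 peaks in the windows were 11, the median H3K4me1 in the spans was 0 bp and the genes flanked on both sides were 0. With peaks at or above the median fold of their list, 3 genes had H3K4me3 (LEF1, CTNNB1 and TLE1 were lost), the median domain was 0 bp, 61 H3K4me1 peaks remained, the median H3K4me1 in the spans was 2216.5 bp, 1 gene was flanked on both sides (LEF1 left this count with its H3K4me3 peak, its flanking H3K4me1 peaks stayed) and 16 Wnt pathway genes had H3K4me3. With as many H3K4me1 as H3K4me3 peaks, 12 peaks remained, the median in the spans was 0 bp and 0 genes were flanked on both sides. The spans alone held 50 of the 105 peaks. No paired analysis was possible because each mark has 1 library.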

Other observations

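Genes near the family shared its windows. Beside the domains at the 8 genes, the windows held 8 other H3K4me3 peaks, among them that of LEF1-AS1 described above, VDAC1 (0.795 kb, ending 44.1 kb before the earlier TCF7 start), SKP1, a ubiquitin ligase subunit (2.47 kb), the phosphatase gene PPP2CA with PPP2CA-DT (3.03 kb), HADH (2.19 kb), TGOLN2 (3.35 kb), and RETSAT with ELMOD3 (1.81 kb). Of all 14 H3K4me3 peaks in the windows 12 covered an annotated start. The exceptions were the TLE1 fragment, 52 bp from the TLE1-DT start, and a peak of 0.259 kb 113 bp from a CAPG start. The CTNNB1, TCF7L2, TLE1 and TLE3 windows held no H3K4me3 peak beyond those already described, and the TLE4 window held none at all.

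The genes most like TCF7 in domain length, H3K4me1 in the window and gene length were EEIG1 (domain 5.90 kb, 88.8 kb of H3K4me1), RAB11FIP1 (3.99 kb, 74.7 kb) and the lymphocyte kinase gene STK17B (5.12 kb, 72.9 kb). Those most like LEF1 were ST3GAL1 (4.96 kb, 91.3 kb), the cyclin gene CCND3 (6.92 kb, 86.2 kb) and the ETS factor gene ETS1 (7.32 kb, 121 kb). TCF7 itself had 97.0 kb of H3K4me1 in its window and LEF1 96.8 kb. Likeness was the distance in percentile ranks of these 3 values, over 2 libraries, and describes no shared function.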
